A study of Mus musculus with 12 samples.

Results

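Oxidative phosphorylation subunits are the proteins that build the respiratory chain and the ATP synthase of the mitochondrial inner membrane. The subunits described here are the protein-coding genes whose mouse symbols begin with Ndufa, Ndufb, Ndufc, Ndufs, Ndufv, Uqcr, Cox4 to Cox8 or Atp5, together with Sdha, Sdhb, Sdhc and Sdhd. Assembly factors named Ndufaf were left out. This rule found 85 of the 21839 genes in the count table: 36 of complex I, 4 of complex II, 8 of complex III, 20 of complex IV and 17 of complex V. Ndufa4 and Ndufa4l2 are counted with complex IV, where Ndufa4 resides despite its name. The name pattern takes in Atp5s, a coupling factor that is not a stable part of the synthase, and Cox7a2l, a factor that joins complexes into supercomplexes. It leaves out Cyc1, Cycs, Atpif1 and Usmg5, and the mitochondrially encoded subunits were not analysed here. The test of counts covered 77 of the 85 subunits, those with enough reads.

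Complexes I and II pass electrons from NADH and succinate to ubiquinone, complex III passes them on to cytochrome c, and complex IV hands them to oxygen. Complexes I, III and IV pump protons as they do so, and complex V, the ATP synthase, uses the proton gradient to make ATP. Regulatory T cells (Tregs), CD4 T cells that restrain immune responses, are known for relying on this route more than activated conventional T cells do.

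RNA was sequenced from Tregs of spleen and lymph nodes of C57BL/6 mice, sorted as CD4 cells that carried an additional surface protein and had either high or low CD25, the interleukin-2 receptor alpha chain. All mice carried loxP-flanked Atg5, an autophagy gene. TG mice also carried 1 copy of Cre driven by the CD11c promoter (Atg5 flox/flox CD11c Cre +/-), which deletes Atg5 in CD11c-expressing cells, mainly dendritic cells; WT littermates had no Cre (Atg5 flox/flox CD11c Cre -/-). Each genotype and gate gave 3 libraries numbered 1 to 3, called WT High 1, TG Low 2 and so on, and there were 12 in all. No age or further treatment is given in the labels, and no Foxp3 stain or reporter defined the gates.

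Total counts ran from 18161830 to 23942479 per library, apart from TG High 2 with 6767828. Levels are given as CPM, counts scaled by library size with TMM factors. Atg5, which the sorted T cells are not labelled as lacking, stood at 32.0 to 37.5 CPM in the 6 WT libraries and 33.9 to 41.5 CPM in the 6 TG libraries, so its level does not check the genotype. The T cell genes Cd3e and Cd4 stood at 921 to 1145 CPM and 513 to 715 CPM. Foxp3, which defines Tregs, stood at 1412 to 1662 CPM in the High libraries and at 983 to 1193 CPM in the Low libraries. Il2ra, which encodes CD25, stood at 1072 to 1309 CPM in the High and 481 to 734 CPM in the Low libraries. Whether the Low gate held a smaller share of Tregs was not tested. Nothing in the labels says that the replicates are different animals, and the p-values therefore measure no more than the spread among these libraries. In RNA from sorted cells in bulk, fewer cells of a type and less RNA per cell cannot be told apart.

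The subunits took about 1% of all reads, between 0.939% (WT High 2) and 1.23% (TG Low 1) of a library. Their summed level was 11409, 9477 and 9956 CPM in WT High 1, 2 and 3. It was 11534, 10712 and 10306 CPM in TG High, 10729, 9867 and 10071 CPM in WT Low, and 12147, 9635 and 11136 CPM in TG Low. The library numbered 1 was the highest of its group in all 4 groups, and the ranges of all 4 groups overlapped. The mean was 10280.4 ± 1006 CPM in WT High and 10850.5 ± 626 CPM in TG High, and 10222 ± 450.3 CPM in WT Low and 10972 ± 1264 CPM in TG Low (SD, n = 3 each).

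Between genes, levels were compared per kilobase of the principal transcript, and the order within and between complexes depends on that choice. The median subunit stood at 119 CPM per kilobase, against 13.3 for all genes tested, and 70 of the 77 tested subunits lay above that value. The medians by complex were 97.7 for complex I, 136 for complex II, 175 for complex III, 197 for complex IV and 179 CPM per kilobase for complex V. Per kilobase of all annotated exons together, a length chosen after seeing the data, they were 60.7, 93.9, 84.2, 91.0 and 58.8, with complex V lowest in place of complex I, and again 70 subunits lay above the median of all genes tested (7.77). Atp5b, the catalytic beta subunit of the ATP synthase (chromosome 10 at 128083273 to 128090391, GRCm38, plus strand), was the highest of all at 681 ± 39.1 CPM per kilobase (SD over 12 libraries). Atp5g3, which encodes the proton-carrying c subunit, followed at 411 ± 57.2 and the catalytic partner Atp5a1 at 341 ± 23.3 CPM per kilobase. By the exon length Atp5b was again highest (308), close to Cox6a1 (305), and Atp5g3 (135) lay below Atp5a1 (269).

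In complex I the highest level belonged to the small accessory subunits Ndufa3 (253 ± 23.8) and Ndufa1 (222 ± 28.2 CPM per kilobase), which do not differ beyond their spread; by the exon length Ndufa3 (127) lay below Ndufa1 (222). The lowest were Ndufb4 (9.55 ± 1.67) and Ndufab1, the mitochondrial acyl carrier protein (8.18 ± 1.36). The core subunits Ndufs1, which holds iron-sulfur clusters, and Ndufv1, which binds NADH, stood between them. In complex II the catalytic subunits Sdha (189 ± 8.59) and Sdhb (174 ± 11.7) lay above the membrane anchors Sdhd (99.2 ± 11.4) and Sdhc (31.0 ± 2.46 CPM per kilobase). By the exon length Sdhb (88.5) lay below Sdhd (99.2), so their order turns with the choice. Complex III was the most even: Uqcrh, a hinge protein at cytochrome c1, led at 233 ± 35.1, and the Rieske iron-sulfur protein Uqcrfs1 was lowest at 79.9 ± 7.57, close to Uqcrb at 83.7 ± 9.60. By the exon length Uqcr10 led (171), Uqcrq was lowest (50.7, against 229 by principal transcript) and Uqcrfs1 was the fifth of 8.

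In complex IV, Cox4i1 (376 ± 47.3) and Cox6a1 (375 ± 41.1 CPM per kilobase) were level by principal transcript, but stood at 181 and 305 by the exon length, and Cox7c (8.36 ± 1.38) and Cox6b2 (0.735 ± 0.547) closed the order. In complex V the lowest were Atp5s (6.59 ± 1.15) and Atp5l, a membrane subunit of the synthase dimer (4.93 ± 0.990), which was lowest by the exon length as well (0.416). Sequence copies went with some of the low values: 85% of the 50-base stretches of the Atp5l transcript and 53.0% of those of Cox7c also occur in transcripts of other genes. For Ndufb4 and Ndufab1, the lowest of complex I, the shares were 37.0% and 31.2%, and for the low Atp5s and Cox6b2 they were 0%. The median level was 158 CPM per kilobase for the 47 subunits with under 10% shared stretches, 134 for the 16 with 10 to 30%, and 62.2 for the 14 with over 30% (Spearman's rho -0.33 across 77 genes, which are not independent). How the counting treated reads with several matches is not given in the sources used here, and the part of shared sequence in these levels was not tested.

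**Figure D1:**
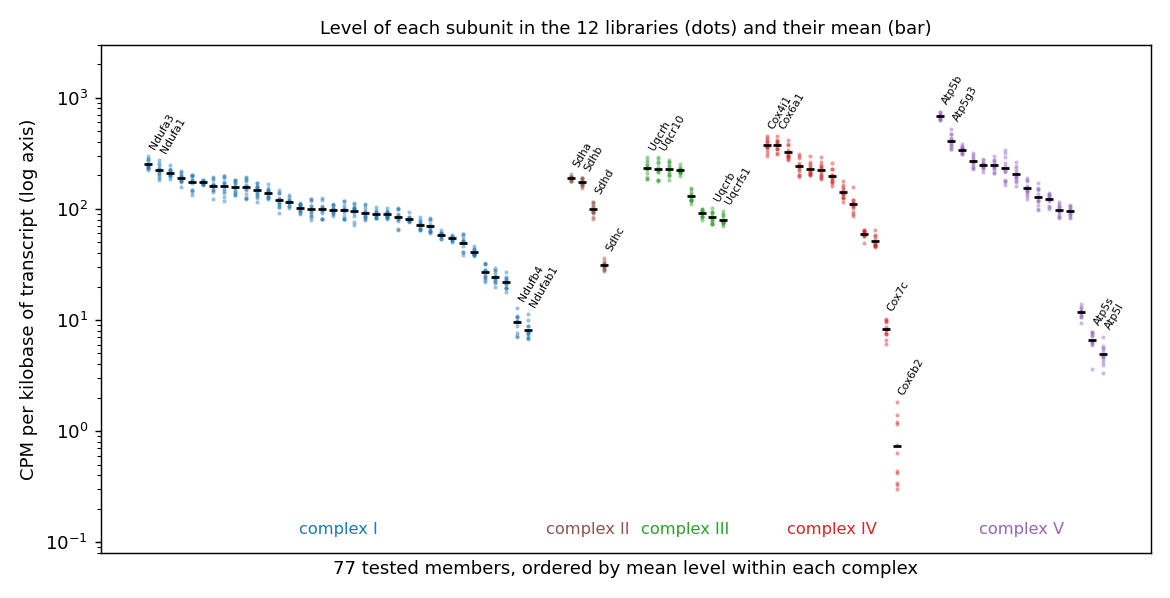
Level of the 77 tested subunits in CPM per kilobase of transcript (log axis), grouped by complex and ordered by mean, with a dot for each of the 12 libraries and a bar for the mean; the 2 highest and 2 lowest of each complex are named, and the 1 library with no Cox6b2 read is not drawn. Atp5b stood highest at 681 CPM per kilobase. The lowest subunits of complexes I, IV and V (8.18, 0.735 and 4.93) lay far below the median of 119, and the lowest of complex III stood at 79.9.

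Several complex IV subunits exist as tissue-specific forms from separate genes, and the libraries held almost only the widespread forms. Over the 12 libraries, Cox4i1 had 63790 reads and Cox4i2, the form known from lung and hypoxia, 13, a ratio of 4788 per kilobase (95% counting interval 2800 to 8993). Cox6a1 had 48540 reads and its heart and muscle form Cox6a2 2. Cox7a2 had 21184 reads and the heart and muscle form Cox7a1 52, a ratio of 243 per kilobase (interval 185 to 325). Each of these less counted forms stayed under 1 CPM in every library.

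Cox6b1 had 45558 reads and the testis form Cox6b2 81, a ratio of 423 per kilobase (interval 340 to 533). Cox7b had 25094 reads and Cox7b2, also known from testis, 1. Cox8a had 28083 reads, Cox8b 4 and Cox8c 0, so that Cox8a was at least 7795-fold higher per kilobase than Cox8c, taking 3 reads over the 12 libraries as the limit that a count of 0 allows. Ndufa4 had 31888 reads and Ndufa4l2, a hypoxia-induced relative, 0, at least 16275-fold higher on the same limit. Intervals and limits cover counting error only, since reads without molecular identifiers are not independent molecules. Of these families only the Cox7a2 relative Cox7a2l, the supercomplex factor, came close to its partner, with 14639 reads and a ratio of 2.36 per kilobase (interval 2.32 to 2.4). By the exon length the ratio was 2495 for Cox4i1 over Cox4i2 and 880.2 for Cox6b1 over Cox6b2, and Ndufa4 was at least 8428-fold higher than Ndufa4l2.

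The 3 genes for the c subunit of the ATP synthase encode the same mature protein with different import sequences. Atp5g3 had 67058 reads, Atp5g1 1582 and Atp5g2 81. All of the 50-base stretches of the Atp5g2 transcript and 66% of those of Atp5g1 occur in other genes' transcripts, and none of those of Atp5g3, so the order of these counts is uncertain. The 8 subunits under the filter on low counts were Atp5g2, Cox4i2, Cox6a2, Cox7a1, Cox7b2, Cox8b, Cox8c and Ndufa4l2. None of them reached 1 CPM in any library, and Atp5g2 was the highest at 0.606 CPM (TG Low 2).

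RefSeq (GRCm38.p6) gave a promoter for 67 of the 85 subunits. Cox8a (28083 reads) and Cox8b (4 reads) show 2 relatives of very different level, and the 150 bases before the start of each are:
Cox8a, chr19:7217617-7217766, minus strand: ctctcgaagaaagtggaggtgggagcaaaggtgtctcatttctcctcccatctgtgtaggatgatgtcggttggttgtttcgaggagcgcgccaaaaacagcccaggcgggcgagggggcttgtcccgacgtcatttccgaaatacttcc
Cox8b, chr7:140900447-140900596, minus strand: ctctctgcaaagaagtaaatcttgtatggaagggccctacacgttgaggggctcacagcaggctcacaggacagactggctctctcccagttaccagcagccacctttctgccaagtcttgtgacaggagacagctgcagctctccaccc
Within 250 bases before the start, on either strand, the letters GCGCANGCG, bound by the regulator of respiratory genes NRF1, occurred in 14 of the 67 subunit promoters (20.9%) and in 5.86% of 27025 genes with a promoter entry. CCGGAAG, bound by GABP and other ETS factors, occurred in 12 (17.9%) against 7.83%, GGGCGGGG, bound by Sp1, in 9 (13.4%) against 18%, and TATAAA in 6 (8.96%) against 14.3%. The NRF1 and GABP letters were more frequent in subunit promoters than among all genes, and neither stands in the Cox8a or Cox8b bases above. A match of letters describes the sequence and is not a binding site.

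TG against WT in CD25 High cells asks whether Tregs of mice with autophagy-deficient dendritic cells differ in these genes. No subunit passed the test (0 of 77, against a background of 0% of 11766 genes; edgeR's quasi-likelihood test with Benjamini-Hochberg adjustment), and 1 subunit had an unadjusted p under 0.05. DESeq2's Wald test called 0 subunits in this and the other comparisons of genotype or gate. The fitted changes were small and mostly positive: 67 of 77 were above 0, where 53.4% of all genes were, and their median was 0.07 on the log2 scale against 0.01 for all genes. Same-numbered pairs gave medians of 0.01, 0.19 and 0.06. The pair numbered 2 includes the shallow library TG High 2, and without that library the median was 0.09. The count above 0 moved with single libraries: it was 40 without WT High 2 (median 0.01) and 47 without TG High 1 (median 0.01). Leaving out 1 library also leaves the replicate numbers unequal between the groups, and the subunits vary with the number, as described below. These counts therefore cannot separate the library from its number. Without the 4 libraries numbered 1, which keeps the numbers equal, 5 subunits changed direction. For 69 of the 77 subunits the 95% interval of the change lay within 1.5-fold in either direction, in this fit without the replicate number.

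The 5 subunits with the smallest p, none of which passed, were Atp5s, Cox6a1, Ndufb4, Ndufv3 and Atp5d. Atp5s stood at 10.7, 11.5 and 11.6 CPM in WT High and at 9.44, 5.36 and 9.52 CPM in TG High. All 3 TG libraries lay below the WT libraries, and the lowest was the shallow TG High 2. The fitted log2 change was -0.46 (SE 0.21, edgeR adjusted p = 1), and it was -0.25 without TG High 2. Ndufb4, an accessory subunit of the complex I membrane arm, stood at 9.54, 6.91 and 9.37 CPM in WT High and at 10.3, 12.4 and 10.6 CPM in TG High. Its TG libraries all lay above the WT libraries (log2 0.37, SE 0.20, adjusted p = 1).

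Ndufb4 was the 1 subunit without overlap in the higher direction and Atp5s the 1 in the lower; among all genes these shares were 1.98% and 2.29%. Cox6a1, a complex IV subunit, stood at 202, 179 and 183 CPM in WT High and at 234, 219 and 197 CPM in TG High, with overlapping groups (log2 0.21, SE 0.10, adjusted p = 1). Ndufv3, next to the NADH site of complex I, differed by 0.15 (SE 0.11) and Atp5d, the delta subunit of the synthase, by 0.13 (SE 0.10). TG was higher in 3 of 3 same-numbered pairs for 27 subunits, 12.6% being the share among all genes.

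In CD25 Low cells the same comparison called no subunit (0 of 77, background 0%), and none had an unadjusted p under 0.05. The changes were positive for 71 of 77 (52.4% of all genes), with a median of 0.11 on the log2 scale against 0.01. The same-numbered pairs gave medians of 0.18, -0.04 and 0.15, so the pair numbered 2 went the other way. The median moved with TG Low 1, the library with the highest level for 44 of the 77 subunits: it was 0.02 without that library, with 45 subunits above 0. Leaving it out also left the replicate numbers unequal between the groups. Without the 4 libraries numbered 1, 8 subunits changed direction. Subunit length moved with this comparison as well (Spearman's rho -0.51 across 77 genes, -0.22 across 11740 genes), and with the length trend of each library removed the median was 0.05.

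Ndufs3, a core subunit of the complex I module that holds the ubiquinone site, had the smallest p. It stood at 41.2, 41.2 and 41.3 CPM in WT Low and at 44.9, 45.3 and 48.0 CPM in TG Low. The 3 TG libraries lay above the 3 WT libraries, the 1 such subunit here where 1.58% of all genes were (log2 0.16, SE 0.08, edgeR adjusted p = 0.9999). Atp5b, which stood at 1202, 1312 and 1280 CPM in WT Low and 1420, 1301 and 1363 CPM in TG Low, overlapped between the groups (log2 0.11, SE 0.08). Ndufb11 (0.15, SE 0.09) and Uqcrh (0.23, SE 0.16) also did not pass, and Cox6b2 (-1.42, SE 0.89) rested on under 1 CPM in every library. TG was higher in 3 of 3 pairs for 17 subunits (12.7% of all genes).

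CD25 High against CD25 Low cells shows whether the subunits differ between the gates, which also differed in their level of Foxp3. In the fit without the replicate number no subunit passed in WT (0 of 77, background 0.051%), and none had an unadjusted p under 0.05. In TG the count was also 0 (background 0.0085%), with none under 0.05. The error of this fit includes the spread between the numbers. With the replicate number as a block, where 1.63% of all genes were called in WT and 1.68% in TG, the count of subunits stayed at 0 in both. The medians were 0.01 in WT (43 of 77 above 0, where 49.6% of all genes were) and -0.01 in TG (32 above 0, where 49.8% of all genes were). In the fit without the block the 95% interval lay within 1.5-fold for 73 subunits in WT and 70 in TG. Pair medians were 0.10, -0.05 and 0.00 in WT, and -0.07, 0.13 and -0.11 in TG.

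In WT the smallest p belonged to Cox6a1, at 202, 179 and 183 CPM in WT High and 219, 238 and 197 CPM in WT Low. The groups overlapped, and the High libraries were lower in each numbered pair (log2 -0.21, SE 0.10, edgeR adjusted p = 1; with the block, adjusted p = 0.307). Uqcrh (0.13, SE 0.16), Ndufa10 (-0.06, SE 0.07), Atp5l (0.25, SE 0.31) and Ndufv2 (0.13, SE 0.17) followed. No subunit separated the groups in WT, against 4.49% of all genes higher and 4.37% lower without overlap. In TG the smallest p belonged to Ndufb4, at 10.34, 12.4 and 10.6 CPM in TG High and 10.29, 6.87 and 9.32 CPM in TG Low. It was the 1 tested subunit without overlap (4.22% of all genes; log2 0.33, SE 0.20, adjusted p = 0.9991), followed by Ndufs3 (-0.12, SE 0.08), Ndufs1 (0.11, SE 0.08), Cox6b2 (1.07, SE 0.90) and Ndufa2 (-0.11, SE 0.10).

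The difference of the genotype effects between the gates also called no subunit (background 0%), and none had an unadjusted p under 0.05. The median was -0.03, with 26 of 77 above 0 (50.3% of all genes). Its smallest p values were those of Ndufs1 (0.13, SE 0.11), Ndufv1 (-0.13, SE 0.12), Ndufb4 (0.32, SE 0.29), Atp5s (-0.32, SE 0.29) and Cox6b2 (1.33, SE 1.22), all at an edgeR adjusted p of 0.9999. In this comparison the interval lay within 1.5-fold for 57 of 77 subunits, so it is the least precise of the 5. Summed over 15 genes, B cell markers ranged from 110.3 to 301 CPM in WT High and 118 to 489 CPM in TG High, and from 112 to 358 CPM in WT Low and 122 to 451 CPM in TG Low. Myeloid or dendritic cell genes had a median of -1.5 for High minus Low in WT (below 0 in 9 of 9 tested) and -1.81 in TG (7 of 9), with none called. Summed over 16 such genes, the libraries numbered 1 stood at 110 CPM in WT High and 189 CPM in WT Low. In TG these were 145 CPM in High and 285 CPM in Low. Libraries numbered 2 and 3 stood at 83.9 to 106 CPM over all groups, so the gate difference in this sum lay mainly in number 1. Cell cycle genes were above 0 in 23 of 23 in both TG minus WT comparisons (medians 0.29 and 0.29), with none called. The same held in both gate comparisons (0.33 in WT and 0.46 in TG). In the libraries numbered 1 their sum was 1053 CPM in WT High and 798 CPM in WT Low. In TG it was 1286 CPM in High and 926 CPM in Low. At the other numbers the sum was lower in High: 398 and 334 CPM against 412 and 339 CPM in WT Low. In TG these were 401 and 361 CPM in High against 412 and 371 CPM in Low. The higher sum in High therefore lay in number 1 only. With the replicate block, 4 of 11 CD8 T or NK cell genes were called lower in High in WT (0.637% of all genes) and 1 in TG (0.697%). One cell cycle gene, 1 of 23, was called higher in WT (0.994% of all genes). The part of these cells in the subunits' values was not tested.

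**Figure D2:**
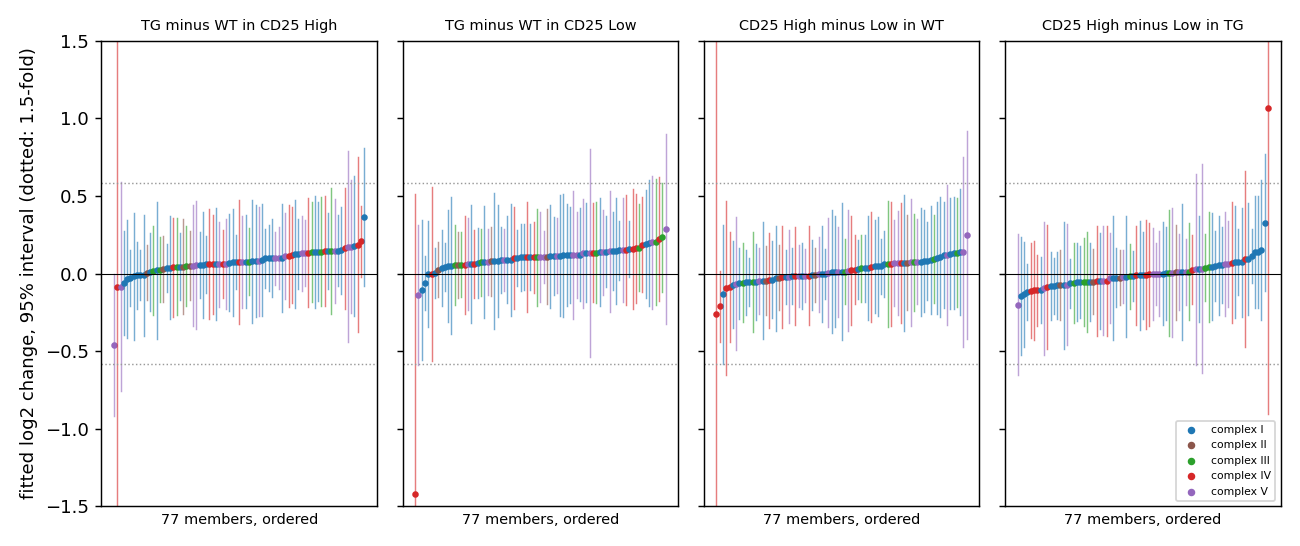
Fitted log2 change (dots, with 95% intervals) of the 77 tested subunits in the 4 comparisons of genotype and CD25 gate, ordered by size and coloured by complex; dotted lines mark 1.5-fold, and the intervals of a few low subunits run past the axis. Most intervals lie between the dotted lines and cross 0, and most dots lie above 0 in both TG against WT panels.

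The subunits varied with the replicate number. The number accounted for a median of 64.8% of a subunit's variance in log2 level over the 12 libraries, genotype for 8.94%, gate for 1.55% and their interaction for 0.606%. Over all genes tested the number accounted for 40.5%, genotype for 3.12% and gate for 5.64%, and over 6201 other genes of similar level the number accounted for 40.4%. What the numbers stand for is not given in the labels. With the 4 groups held constant, 43 of 77 subunits were higher in the libraries numbered 1 than in those numbered 2 and 3 (16.8% of all genes), and 0 were lower (10.7% of all genes). The median difference was 0.24 on the log2 scale against -0.01 for all genes, and 71 of the 77 were above 0 (48.5% of all genes).

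The difference was present in each group. Medians of number 1 against the mean of the others were 0.30 for the High gate and 0.17 for the Low gate in WT, and 0.20 and 0.30 in TG. The library numbered 1 exceeded both others in 4 of 4 groups for 47 subunits (14.8% of all genes), and for 20 subunits all 4 libraries numbered 1 lay above all 8 others (8.99% of all genes). Leaving out 1 library at a time gave 35 to 50 subunits called. Relative to a subunit's own mean over the 12 libraries, the median subunit stood 0.16 higher in both High libraries numbered 1, 0.05 higher in WT Low 1 and 0.25 higher in TG Low 1. Of the libraries numbered 2, WT High, WT Low and TG Low stood at -0.20, -0.15 and -0.18, and TG High 2, the shallow one, at -0.01.

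**Figure D3:**
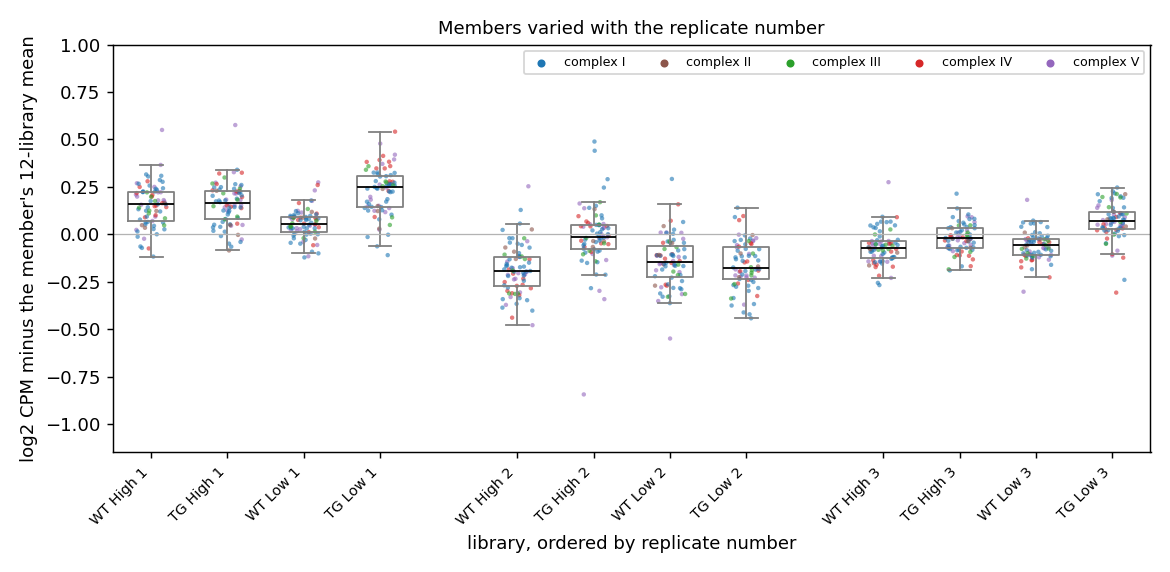
log2 CPM of 76 subunits minus each subunit's mean over the 12 libraries, by library and coloured by complex; boxes span the quartiles, black lines are medians, whiskers the range without outlying points, and Cox6b2, with no read in 1 library, is not drawn. The 4 libraries numbered 1 have the positive medians 0.16, 0.16, 0.05 and 0.25, and of the other 8 only TG Low 3 is above 0.

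Among the called subunits the largest differences were those of Atp5e and Atp5k, small subunits of complex V. Cox6b2, under 1 CPM in every library, had a larger fitted difference that did not pass (1.03, SE 0.49, edgeR adjusted p = 0.136). Atp5e, the epsilon subunit of the catalytic head, stood at 123 CPM in WT High 1, 92.0 CPM in WT Low 1, 143 CPM in TG High 1 and 133 CPM in TG Low 1. In the same order it stood at 68.6, 76.9, 75.5 and 74.0 CPM in the libraries numbered 2 and at 93.3, 89.8, 102 and 108 CPM in those numbered 3. Number 1 was the highest in every group, although WT Low 1 was below 3 libraries numbered 3 of the other groups. The difference was 0.52 (SE 0.08, edgeR adjusted p = 0.000127). Atp5k, the e subunit at the dimer interface, stood at 54.5, 56.2, 57.0 and 63.0 CPM in the libraries numbered 1 and at 36.4 to 50.9 CPM in the other 8. Those ranges did not overlap, and the difference was 0.44 (SE 0.07, adjusted p = 0.000131).

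Cox6a1, of complex IV, gives the contrast: it stood at 202, 234, 219 and 258 CPM in the libraries numbered 1 and at 179 to 238 CPM in the other 8, so the ranges overlapped. Its difference was 0.14 (SE 0.06, adjusted p = 0.0852), which did not pass. The 150 bases before the start of these 3 genes are shown because their levels follow the number to different degrees. Capitals mark the NRF1 letters (GCGCANGCG, either strand) and the GABP letters (CCGGAAG, here on the other strand as CTTCCGG):
Atp5e, chr2:174464102-174464251, minus strand: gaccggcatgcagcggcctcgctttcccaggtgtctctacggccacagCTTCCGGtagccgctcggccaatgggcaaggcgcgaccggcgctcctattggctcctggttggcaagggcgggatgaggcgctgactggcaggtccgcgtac
Atp5k, chr5:108434400-108434549, minus strand: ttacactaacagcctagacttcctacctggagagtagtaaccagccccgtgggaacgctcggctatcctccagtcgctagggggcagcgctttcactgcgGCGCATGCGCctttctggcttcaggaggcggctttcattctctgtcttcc
Cox6a1, chr5:115348959-115349108, minus strand: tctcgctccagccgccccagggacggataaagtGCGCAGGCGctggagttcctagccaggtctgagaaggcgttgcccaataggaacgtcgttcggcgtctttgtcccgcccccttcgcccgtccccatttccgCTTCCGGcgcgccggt
The Atp5e bases hold 1 GABP match, those of Atp5k the NRF1 letters on both strands, overlapping, and those of Cox6a1 1 of each. Whether such matches go with the difference was not tested.

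By complex, the share called higher was 18 of 36 in complex I, 1 of 4 in complex II, 6 of 8 in complex III, 9 of 13 in complex IV and 9 of 16 in complex V. Among all genes the share was 16.8%. Within complex I it was 16 of 29 accessory subunits (median 0.23) and 2 of 7 core subunits (median -0.01). The 2 core subunits were Ndufv2 (0.32, SE 0.06) and Ndufs8 (0.33, SE 0.06), both holders of iron-sulfur clusters. Both stayed called with the length trend of each library removed, an alternative described below. Of the accessory subunits only Ndufb2, Ndufb5, Ndufb8, Ndufb9, Ndufc1, Ndufc2 and Ndufs4 did, so the split between accessory and core subunits depends on transcript length. Ndufs8 stood at 119, 122, 103 and 105 CPM in the libraries numbered 1 and at 79.2 to 100 CPM in the others, with no overlap. Ndufs1 and Ndufv1 were not called for number 1 against the others: Ndufs1 stood at 140 to 154 CPM in the libraries numbered 1 and at 140 to 166 CPM in the other 8 (-0.04, SE 0.05, edgeR adjusted p = 0.648), and Ndufv1 at 128 to 135 and 127 to 154 CPM (-0.06, SE 0.06, adjusted p = 0.501). For both, number 3 lay above number 2 in 4 of 4 groups, and the number accounted for 49.3% and 41.1% of their variance.

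In complex II only Sdhd, a membrane anchor, was called (0.28, SE 0.06, edgeR adjusted p = 0.00157). It stood at 132 to 143 CPM in the libraries numbered 1 and at 101 to 128 CPM in the others. The catalytic subunits were Sdha, at 516 to 560.5 CPM against 512 to 600 (-0.02, SE 0.05), and Sdhb, at 205 to 215 CPM against 177 to 215 (0.14, SE 0.06). Neither passed. In complex III the largest difference was that of the small subunit Uqcr10 (0.36, SE 0.07). The Rieske protein Uqcrfs1 was called (0.24, SE 0.05, adjusted p = 0.00331), at 115 to 129 CPM against 95 to 106, and the core proteins Uqcrc1 (0.08, SE 0.06) and Uqcrc2 (0.11, SE 0.06) were not.

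In complex IV, 9 nuclear subunits were higher with number 1, led by Cox6c (0.39, SE 0.06), Cox6b1 (0.35, SE 0.06) and Cox5a (0.34, SE 0.07). Cox4i1, the subunit that binds ATP as an inhibitor, stood at 312, 326, 295 and 337 CPM in the libraries numbered 1 and at 222 to 300 CPM in the others. Only TG Low 3, at 300.3 CPM, overlapped (0.29, SE 0.06, edgeR adjusted p = 0.0017). In complex V the difference was 0.38 (SE 0.06) for Atp5mpl and 0.34 (SE 0.06) for Atp5g3, while Atp5b was not called (0.01, SE 0.05, adjusted p = 0.891). The other subunits among the 10 largest called differences were Ndufb2 (0.37, SE 0.07) and Ndufb8 (0.36, SE 0.07), both of the complex I membrane arm. Ndufb2 and Cox5a overlap exons of other genes over 50.3% and 41.7% of their exon bases, and the library chemistry does not record the strand, so their reads cannot be told apart from those of their neighbours.

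The difference followed transcript length. It was called for 25 of 34 subunits with transcripts up to 700 nt (31.9% of all genes of that length; median 0.29). It was called for 15 of 30 over 700 to 1500 nt (23.6% of all genes; median 0.20) and for 3 of 13 above 1500 nt (14.5% of all genes; median 0.10). All genes tested had medians of 0.15, 0.08 and -0.03 in the same classes, so the median of the subunits lay above that of all genes in each class. Spearman's rho with length was -0.60 across 77 subunits and -0.18 across 11740 genes, which share the 12 libraries. With the length trend of each library removed, an alternative chosen after seeing the data, 26 subunits were called higher (16.4% of all genes) and 0 lower (9.09% of all genes), with a median of 0.13. All 26 were among the 43. They were 9 of complex I, 1 of complex II, 2 of complex III, 8 of complex IV and 6 of complex V, and included Ndufv2 (0.31, SE 0.06), Atp5e (0.34, SE 0.07), Sdhd (0.22, SE 0.05) and Cox6c (0.22, SE 0.05).

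**Figure D4:**
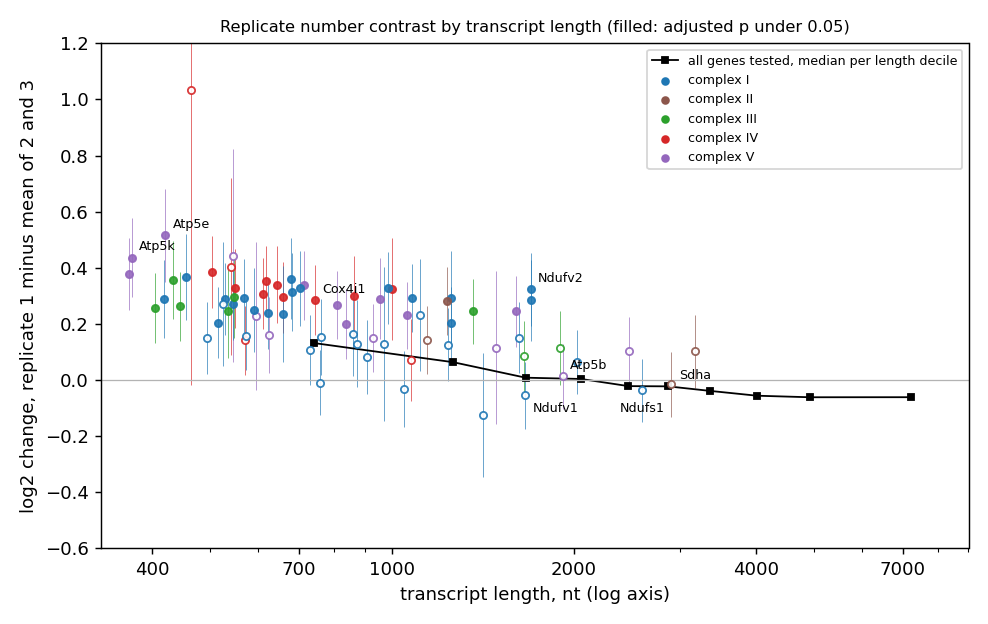
log2 difference between the libraries numbered 1 and the mean of those numbered 2 and 3 for each subunit (dots with 95% intervals; filled where the adjusted p was under 0.05), against transcript length in nt (log axis), with the median of all genes tested in each length decile as black squares. Short subunits such as Atp5e (0.52) lie highest, Sdha (-0.02), Atp5b (0.01) and Ndufs1 (-0.04) lie near 0, and most subunits up to 1500 nt lie above the black line; the interval of Cox6b2 runs past the axis.

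Lists of other genes of mitochondrial energy metabolism were counted in the same contrast, where 16.8% of all genes were called higher and 10.7% lower. The share called higher was larger among short transcripts (31.9% up to 700 nt), and these lists were not split by length. Of 42 tested assembly factors 3 were higher with number 1 and 0 lower (median 0.02), and of 17 citric acid cycle genes, which make the NADH and succinate that the chain uses, 2 were higher (median 0.04). Mitochondrial ribosomal protein genes were called higher in 20 of 77 and lower in 1 (median 0.10). Regulators of mitochondrial genes, such as Nrf1 and Gabpa, were higher in 0 and lower in 4 of 14 (median -0.14). Of the 4 subunits and relatives that the name pattern leaves out, 2 were higher (median 0.22). The difference between these lists and the subunits was not tested.

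Markers of other cells and of dividing cells moved with the same number, in the contrast where 16.8% of all genes were called higher and 10.7% lower. Summed over the list, 15 B cell genes stood at 301 to 489 CPM in the libraries numbered 1, 114 to 177 in those numbered 2 and 110 to 122 in those numbered 3, and 14 of 15 were called higher (median log2 3.30). The 16 myeloid or dendritic cell genes stood at 110 to 285, 83.9 to 106 and 85.2 to 89.5 CPM (8 of 9 tested higher), and the 12 CD8 T or NK cell genes at 114 to 149, 77.6 to 93.5 and 57.9 to 70.7 CPM (9 higher and 1 lower of 11). The 23 cell cycle genes stood at 798 to 1286, 398 to 412 and 334 to 371 CPM, and 23 of 23 were higher (median 3.44). No marker of these lists was at 0 in all 4 libraries numbered 1, while 2 myeloid and 2 CD8 T or NK genes were at 0 in all 4 numbered 3. The sorted cell genes Cd3e, Cd4, Foxp3 and Il2ra summed to 3238 to 4399 CPM in the libraries numbered 1 and 3227 to 4516 in the others. The part of other cells, dividing cells and library chemistry in the subunits' difference was not tested.

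Between the libraries numbered 2 and 3 fewer subunits were called. Of 77, 1 was higher and 9 lower with number 2 (6.43% and 5.99% of all genes), with a median of -0.12. The 9 were Atp5e (-0.41, SE 0.09, edgeR adjusted p = 0.0108), Ndufa7 (-0.35, SE 0.07), Ndufb9 (-0.33, SE 0.07), Ndufb8 (-0.32, SE 0.08), Uqcr10 (-0.26, SE 0.08), Ndufs4 (-0.26, SE 0.08), Ndufa11 (-0.25, SE 0.07), Uqcrq (-0.25, SE 0.07) and Ndufb7 (-0.23, SE 0.07), of which 6 belong to complex I. Ndufa7, an accessory subunit of complex I, stood at 78.1, 78.4, 74.7 and 70.0 CPM with number 2 and at 95, 94.8, 89.8 and 105 CPM with number 3, with no overlap.

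Ndufab1, which also serves fatty acid and lipoate synthesis, went the other way. It stood at 12.5, 16.1, 14 and 12.6 CPM with number 2 and at 9.59, 10.0, 11.3 and 9.70 CPM with number 3 (0.43, SE 0.12, edgeR adjusted p = 0.0299), again with no overlap. By group the median of number 2 minus number 3 was -0.12 for the High gate and -0.09 for the Low gate in WT, and 0.02 and -0.27 in TG. This count rested on single libraries: it was 10 as given, 1 without TG Low 3, 2 without TG Low 2, 4 without WT Low 3, 5 without each of WT High 2, WT High 3 and TG High 3, and up to 15 without another library. With the length trend of each library removed it was 5, with 2 higher (6.15% of all genes) and 3 lower (4.95% of all genes), and 4 of these were among the 10.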

How the data were processed

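The authors deposited 1 table of raw read counts by Ensembl gene. CASAVA 1.8.2, STAR 2.4 and, for counting, featureCounts 1.4.6 are named with build GRCm38 per the submitters' processing notes. How they were set is not given in the sources used here. Per the labels' protocols, cDNA came from the SMARTer Ultra Low kit, which does not mark strand. Of 21839 genes, 21628 were matched to a symbol in GENCODE vM21, whose positions and principal transcripts (best APPRIS tag and support level, then shortest) were used.

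The test was that of edgeR 4.0.16 in R 4.3.3, with TMM, filterByExpr (minimum count 10; 11766 genes), robust quasi-likelihood fits of all 12 libraries with a level for each of the 4 groups, and Benjamini-Hochberg adjustment over all genes at 0.05. The replicate number contrasts come from the fit with the number as a factor. The p-values, SEs and intervals for genotype and gate come from the fit without it, unless the block is named. Their error therefore includes the spread between the numbers. Scripts were tested on simulated data. The subunits, gene lists and tests were chosen with earlier results of these data known.

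The labels give every group the numbers 1 to 3 without saying what they mark. Deviations from the group means over all tested genes correlated at 0.34 to 0.83 between same-numbered libraries of different groups (18 pairs) and at -0.688 to 0.197 between differently numbered ones (36 pairs). Over all genes the numbers therefore pair the samples, and this pairing comes from the data. Over the subunits alone the correlations were -0.15 to 0.73 and -0.70 to 0.53, so those ranges overlap.

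Named subunits were those past the threshold (at most 10 per direction for the number contrasts), otherwise the 5 with the smallest p, with core subunits, paralog families, and the 2 highest and lowest per complex. Alternatives were DESeq2 1.42.0 and its size factors, other filters, the replicate block, other sets of libraries, leaving out each library and removing the length trend.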

Additional observations from a re-analysis of the deposited data

How the results depend on the processing

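In all alternatives run, no subunit was called in the 5 comparisons of genotype and gate. With the replicate number as a block these counts were 0, 0, 0, 0 and 0, and the block changed no call of a subunit. Leaving out each library in turn gave 0 in each of these comparisons, 35 to 50 subunits for number 1 against numbers 2 and 3, and 1 to 15 for number 2 against number 3. Removing the length trend, chosen after seeing the data, gave 26 subunits in place of 43 and 5 in place of 10; the cause was not tested.

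Leaving out each library moved the median log2 change of the subunits between 0.01 and 0.18 for TG minus WT in CD25 High, 0.02 and 0.21 in CD25 Low, -0.08 and 0.08 for the gate in WT, and -0.12 and 0.09 in TG. In the genotype and gate comparisons, leaving out 1 library or another turned the direction of 44, 34, 65, 63 and 61 of the 77 subunits (TG minus WT in High and Low, the gate in WT and TG, and the difference of effects), none of which had passed. These fits had no replicate block, so leaving out 1 library also left the numbers unequal between the groups. Without the 4 libraries numbered 1, which keeps the numbers equal, 5, 8, 21, 18 and 34 subunits turned in the same order. Of the subunits named for these comparisons, Atp5l between the gates in WT was -0.010 without WT High replicate 1 and up to 0.41 without another library. Cox6b2 between the gates in TG was -0.80 without TG High replicate 1 and up to 1.48 otherwise, and in the difference of effects -0.54 and up to 1.74. Both genes have few reads, and the cause was not tested. Depth limits the subunits under 1 CPM, and TG High replicate 2 held 6767828 counts. The median SE of the subunits was 0.1456 for TG minus WT in CD25 High and 0.1452 in CD25 Low. The part of depth in the intervals was not tested. No called subunit turned direction in any alternative, and removing the length trend ended 17 of the 43 calls for number 1 and 6 of the 10 for number 2 against number 3.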
